A study of Mus musculus with 22 samples.

Results

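The immunoglobulin heavy chain variable genes were examined in bulk RNA of mouse distal colon, segment by segment and library by library. The members were all genes of the count table with the biotype IG_V_gene and a symbol that begins with Ighv, which gave 113 of 46078 genes. A further 70 Ighv genes annotated as pseudogenes and 2 with the biotype IG_LV_gene were not members. The study sequenced poly(A) RNA from 22 mice in 3 groups. Wild-type C57BL/6 mice (n = 8, 4 males and 4 females) and Winnie mice (n = 7, 3 males and 4 females) were 14 weeks old, and Winnie-Prolapse mice (n = 7, 4 males and 3 females) were 18 weeks old. Winnie mice carry a missense mutation in Muc2, the gene of the main mucin of the colon, and develop colitis without treatment. The labels call the Winnie colon inflamed and the Winnie-Prolapse colon severely inflamed. Age and prolapse differ together, so their parts in any difference from the younger groups cannot be told apart. Each library came from a segment of distal colon, not from sorted B cells.

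A heavy chain gene is assembled in a developing B cell when a single V segment is joined to a D and a J segment. All its daughter cells then carry that V segment, so the V segments in a tissue's RNA show which rearranged genes its B cells and plasma cells transcribe. Plasma cells hold far more immunoglobulin mRNA than resting B cells, and in the normal colon most of them secrete IgA. The V segments lie side by side in 1 locus and are grouped into families by sequence, the family being the first number in the symbol.

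All 113 members lay on the minus strand of chromosome 12 (GRCm38), between positions 113578504 and 116000461, beyond the constant gene Ighm at 113418558 to 113422730. They covered 294 to 480 exonic bases each in GENCODE M21. The members were similar to each other. The median identity of a member to its nearest Ighv gene was 95.4%, and 58 members had a neighbour above 95%. A stretch of 100 bases, the read length, was shared exactly with another Ighv gene at 1 or more positions in 38 members. Such stretches made up more than 50% of all positions in 2 of them, Ighv1-62-2 and Ighv1-71. How reads that fit several segments were counted is not given in the sources used here, so values of near-identical segments are uncertain.

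Shown are 6 segments on which the results turn, the most abundant one (Ighv1-26), the one called in Winnie by edgeR (Ighv7-3), and 4 that led single libraries. The last 300 coding bases of each are printed from 5′ to 3′ from the GENCODE M21 transcripts. The capitals mark the codon of the last in-frame cysteine and the germline bases after it, where joining to D begins. The positions are chr12:114788372-114788671 for Ighv1-26, chr12:114153180-114153479 for Ighv7-3, chr12:115158403-115158702 for Ighv1-53, chr12:114288152-114288451 for Ighv3-6, chr12:113859149-113859448 for Ighv5-17 and chr12:114059845-114060144 for Ighv14-3, each on the minus strand of GRCm38 and in the exon that encodes the variable domain.
Ighv1-26: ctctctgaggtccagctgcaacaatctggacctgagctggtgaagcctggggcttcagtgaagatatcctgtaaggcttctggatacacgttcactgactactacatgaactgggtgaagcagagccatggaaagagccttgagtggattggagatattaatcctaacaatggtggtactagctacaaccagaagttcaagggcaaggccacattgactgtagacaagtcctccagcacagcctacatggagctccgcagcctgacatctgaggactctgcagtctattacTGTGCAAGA
Ighv7-3: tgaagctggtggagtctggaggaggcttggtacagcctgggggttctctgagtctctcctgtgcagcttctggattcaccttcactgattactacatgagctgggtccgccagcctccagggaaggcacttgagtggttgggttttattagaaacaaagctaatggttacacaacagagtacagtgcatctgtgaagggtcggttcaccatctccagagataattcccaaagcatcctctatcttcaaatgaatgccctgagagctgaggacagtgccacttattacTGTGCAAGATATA
Ighv1-53: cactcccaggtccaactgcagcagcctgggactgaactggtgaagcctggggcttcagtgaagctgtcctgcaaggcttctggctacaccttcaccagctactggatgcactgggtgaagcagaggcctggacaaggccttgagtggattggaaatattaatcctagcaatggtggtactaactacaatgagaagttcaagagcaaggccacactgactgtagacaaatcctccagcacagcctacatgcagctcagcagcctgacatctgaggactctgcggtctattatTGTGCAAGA
Ighv3-6: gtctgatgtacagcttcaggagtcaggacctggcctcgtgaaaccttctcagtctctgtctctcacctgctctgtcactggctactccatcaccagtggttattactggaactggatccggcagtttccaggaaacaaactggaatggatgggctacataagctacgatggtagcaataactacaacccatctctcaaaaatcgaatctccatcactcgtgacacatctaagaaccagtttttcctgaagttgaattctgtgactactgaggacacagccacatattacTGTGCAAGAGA
Ighv5-17: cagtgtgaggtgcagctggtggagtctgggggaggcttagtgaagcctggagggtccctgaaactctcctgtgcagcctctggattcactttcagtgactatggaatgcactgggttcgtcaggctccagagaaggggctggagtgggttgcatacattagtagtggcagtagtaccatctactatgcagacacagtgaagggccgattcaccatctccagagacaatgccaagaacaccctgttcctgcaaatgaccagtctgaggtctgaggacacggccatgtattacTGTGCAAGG
Ighv14-3: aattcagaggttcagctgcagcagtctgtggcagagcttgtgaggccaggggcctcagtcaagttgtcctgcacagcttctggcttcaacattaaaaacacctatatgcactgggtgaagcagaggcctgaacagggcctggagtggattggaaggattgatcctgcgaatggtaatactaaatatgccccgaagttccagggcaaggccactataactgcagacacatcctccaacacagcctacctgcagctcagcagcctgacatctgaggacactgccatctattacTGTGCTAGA

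Ighv1-26 and Ighv1-53 were the closest pair of these 6, with 86% identical bases over 351 aligned bases. The most distant pair was Ighv1-53 and Ighv3-6, at 62%. Within each printed sequence the cysteine codon was followed by 6 to 10 germline bases.

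Library totals ranged from 24817527 to 36344372 counts, and the members together received 619 to 40752 of them per library, 250918 in all. The lowest member total was that of C57BL/6 replicate 7 and the highest that of Winnie-Prolapse replicate 4. Colon epithelium markers (Epcam, Krt8, Krt20, Cdx2 and Car1) summed to 4054 CPM or more in every library, where CPM (counts-per-million) is a count scaled to the library total. Of 7 Winnie-Prolapse libraries, replicate 6 stood apart, with 19% of its counts in 8 milk protein genes against at most 0.00594% in any other library. Keratins of stratified epithelium (Krt5, Krt14 and Krt6a) summed to 0.908 to 2325 CPM in Winnie-Prolapse, against 1.61 to 2.72 CPM in C57BL/6 and 0.743 to 35.2 CPM in Winnie. Smooth muscle genes (Acta2, Myh11 and Des) had a mean of 4916 ± 1060 CPM (SD, n = 8) in C57BL/6 mice, 2588 ± 1319 (SD, n = 7) in Winnie mice and 1334 ± 469 (SD, n = 7) in Winnie-Prolapse. The part of these other tissues in the values below was not tested.

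Transcripts of the Ighv genes were more abundant in both colitic groups. Their summed level was 22.4 to 104 CPM in C57BL/6 (median 48.5), 89 to 836 CPM in Winnie (median 398) and 302 to 1347 CPM in Winnie-Prolapse (median 661). Every Winnie-Prolapse library lay above every C57BL/6 library. In Winnie 6 of 7 libraries did so, and Winnie replicate 5, at 89 CPM, lay within the C57BL/6 range. Winnie and Winnie-Prolapse overlapped, with 1 of 7 Winnie-Prolapse libraries above all Winnie libraries. The means were 53.8 ± 28.1 CPM (SD, n = 8), 408 ± 289 (SD, n = 7) and 699 ± 330 (SD, n = 7), which is 7.59-fold and 13-fold the C57BL/6 mean and, between the colitic groups, 1.71-fold. Without Winnie-Prolapse replicate 6 the third mean was 723 ± 355 CPM (SD, n = 6), and without Winnie replicate 5 the second was 462. These sums are a description with no test. In bulk tissue, more cells of a type and more RNA per cell cannot be told apart.

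**Figure D1:**
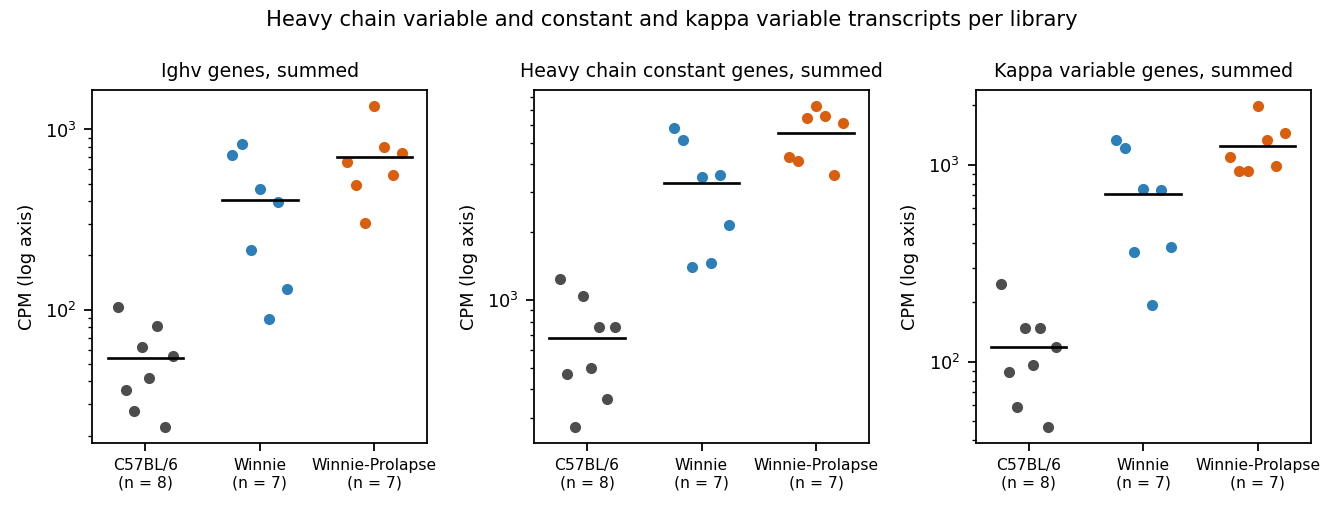
Each point is a library, placed by group, and the bar is the group mean. The y axes are CPM on a log scale for the summed Ighv genes (left), the summed heavy chain constant genes (middle) and the summed kappa variable genes (right), and the group means of the kappa genes are 119, 712 and 1245 CPM.

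Other antibody transcripts had higher means in the colitic groups as well. The 8 heavy chain constant genes summed to 273.5 to 1240 CPM in C57BL/6 (median 627), 1398 to 5776 in Winnie (median 3512) and 3577 to 7255 in Winnie-Prolapse (median 6124). Each colitic library lay above all C57BL/6 libraries. Kappa light chain variable genes summed to means of 119 ± 63.7 CPM (SD, n = 8), 712 ± 437 (SD, n = 7) and 1245 ± 385 (SD, n = 7). Igha, the constant gene of IgA, made up 87.9 ± 11.5% (SD, n = 8) of the constant gene counts in C57BL/6 mice, 95.9 ± 1.95% (SD, n = 7) in Winnie mice and 91.7 ± 5.16% (SD, n = 7) in Winnie-Prolapse. The lowest such share, 60.9%, was that of C57BL/6 replicate 5, which also had the most Ighd (82.4 CPM) of all libraries.

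For each 100 counts on constant genes there were 5.94 to 10.7 counts on Ighv genes in C57BL/6 (median 8), 6.06 to 16.3 in Winnie (median 12.5) and 4.69 to 18.6 in Winnie-Prolapse (median 12.2). In Winnie 5 of 7 libraries, and in Winnie-Prolapse 6 of 7, lay above all C57BL/6 libraries. The means were 8.07 ± 1.7 (SD, n = 8), 11.5 ± 4.11 (SD, n = 7) and 12.9 ± 4.39 (SD, n = 7). Against each 100 counts on kappa variable genes the means were 45.6 ± 4.76 (SD, n = 8), 54.1 ± 11.4 (SD, n = 7) and 54.4 ± 11.2 (SD, n = 7). The ranges of these ratios overlapped between groups.

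Males and females of a group overlapped in the summed Ighv level wherever both were compared. In Winnie the means were 591 ± 330 CPM in 3 males and 271 ± 189 CPM in 4 females (SD). Winnie-Prolapse had 700 ± 456 CPM in 4 males and 699 ± 124 CPM in 3 females. In C57BL/6 they were 57.4 ± 34.4 and 50.3 ± 24.8 CPM, with 4 mice of each sex. No batch of sequencing or library preparation is named in the labels.

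The number of detected segments was counted in each library. Of the 113 members, 42 had at least 1 count in all 22 libraries, and 64 had one in 1 to 21 libraries. A library of C57BL/6 held 66 to 85 members with a count (median 78), one of Winnie 82 to 94 (median 90) and one of Winnie-Prolapse 93 to 98 (median 93). Every Winnie-Prolapse library thus had more members detected than every C57BL/6 library. When the expected number was computed for the same 619 Ighv counts per library, the ranges were 62 to 76.4 in C57BL/6 mice, 61.9 to 70.6 in Winnie mice and 64.6 to 71.3 in Winnie-Prolapse, and they overlapped.

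No count fell on 7 members in any library, namely Ighv5-12-4, Ighv16-1, Ighv1-16, Ighv6-5, Ighv8-9, Ighv8-13 and Ighv1-24. A count of 0 allows up to 3 counts, or 0.0825 to 0.121 CPM depending on the library, and covers counting error only. Of these 7, Ighv5-12-4, Ighv16-1 and Ighv6-5 shared no 100-base stretch with another Ighv gene. A further 8 members had 1 to 10 counts over all libraries together. The Ighv pseudogenes summed to 0.0317 to 1.09 CPM per library, so that nearly all Ighv counts were on the members.

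Segment use was described by the share of each member in the Ighv counts of a library, after division by exonic length. The 10 most abundant members held 29.7 to 55.3% of a library (mean 39.9%). In order of their level, as the mean of the group means in CPM per kb of exon, these were Ighv1-26 (74.5), Ighv3-6 (55.6), Ighv1-81 (55), Ighv1-53 (50), Ighv7-3 (40.7), Ighv1-9 (36.5), Ighv5-17 (34.6), Ighv6-3 (33.9), Ighv9-3 (31.4) and Ighv1-72 (27.7). The median member had 3.99 CPM per kb. Within each group the ranges over libraries, per kb, overlapped between all neighbours in this order. The colitic groups, with their higher levels, weigh most in it, and the order differs by group. In C57BL/6 the mean share of Ighv7-3 was 1.84%, below those of Ighv9-3 (4.84%) and Ighv1-72 (3.11%). The order rests in part on single libraries. Without the library where it was highest, Ighv1-81 had 26.5 CPM per kb and moved from place 3 to 11 (Winnie-Prolapse replicate 4), Ighv5-17 had 22.8 and moved from 7 to 13 (Winnie replicate 2), and Ighv1-72 had 23.8 and moved from 10 to 13 (Winnie replicate 1). The other 7 stayed among the first 10. For Ighv1-72, 42.8% of its 100-base stretches were shared with another Ighv gene, so its level is uncertain.

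Ighv1-26 was the leading segment in 11 of 22 libraries, 4 of C57BL/6, 5 of Winnie and 2 of Winnie-Prolapse. Its share was 5.7 to 22.6% in C57BL/6 (median 9.25%), 3.32 to 21.4% in Winnie (median 11.5%) and 2.9 to 7.25% in Winnie-Prolapse (median 6.34%). The highest shares were in C57BL/6 replicate 8 and Winnie replicate 6. Winnie-Prolapse had the narrowest range, at its low end below every C57BL/6 library in 3 of 7 cases, and the ranges overlapped. The means were 11.1 ± 6.01% (SD, n = 8), 10.6 ± 6.13% (SD, n = 7) and 5.75 ± 1.46% (SD, n = 7).

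The other 11 libraries were led by 9 different segments. Ighv1-81 led 2 (C57BL/6 replicate 5 and Winnie-Prolapse replicate 4), and Ighv7-3 led 2 (Winnie-Prolapse replicates 1 and 7). Ighv1-53, Ighv3-6, Ighv5-17, Ighv9-3, Ighv14-1, Ighv14-2 and Ighv14-3 led a single library each. Several leaders had far lower shares in the other libraries of their group. Ighv14-3, whose sequence is shown above, took 19.3% of the Ighv counts per exonic base in Winnie replicate 1 and 0.272 to 1.13% in the other Winnie libraries. Ighv14-1 took 16.7% in C57BL/6 replicate 7 and at most 0.606% in the other C57BL/6 libraries, where it was listed at 0 in 2. Ighv5-17 took 11.8% in Winnie replicate 2 and at most 2.1% in the other Winnie libraries. Ighv1-81 took 17.3% in Winnie-Prolapse replicate 4 and at most 4.69% in the others of that group. C57BL/6 replicate 7 had only 619 Ighv counts, so that each of its shares is the least precise.

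**Figure D2:**
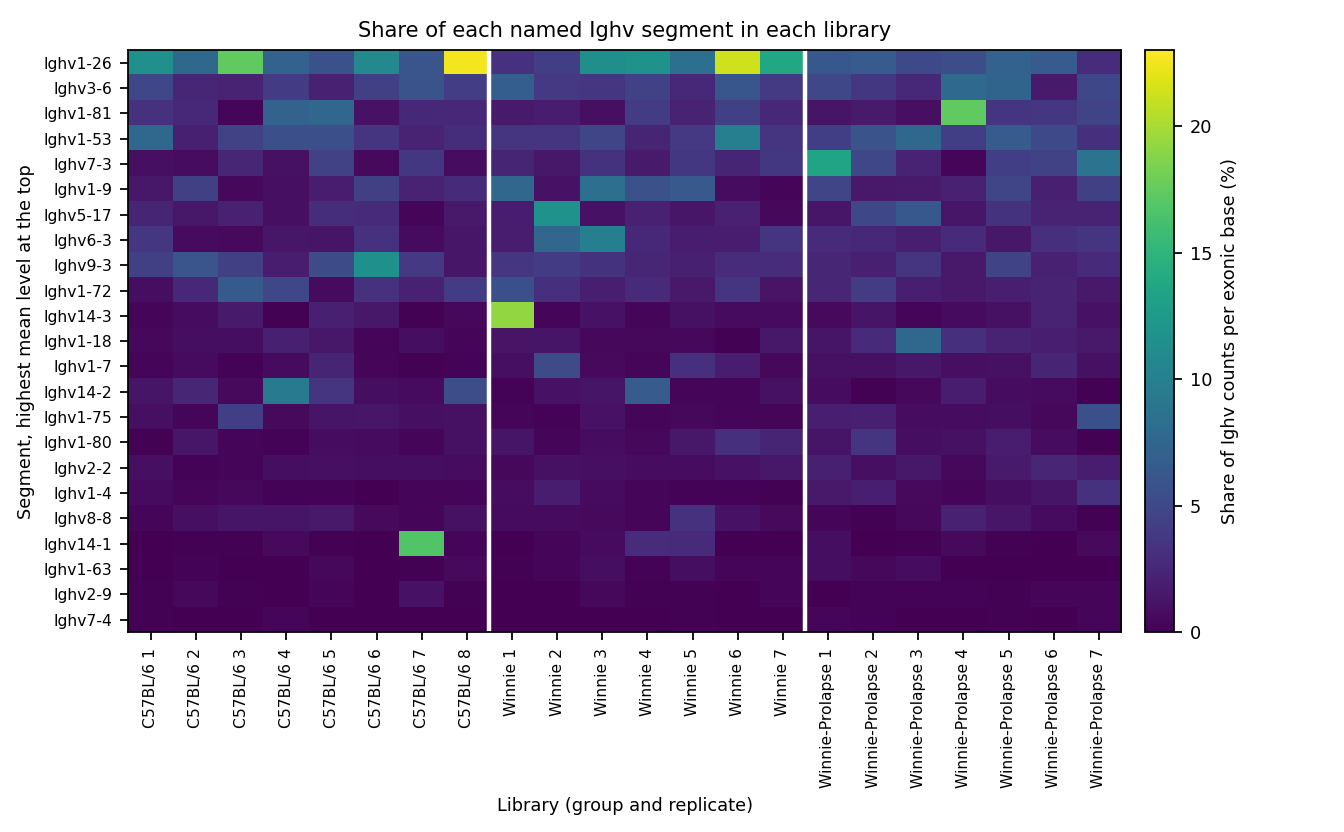
Colour gives the share of 23 Ighv segments (vertical axis, highest mean level at the top) in the Ighv counts per exonic base of each of 22 libraries (horizontal axis, white lines between groups). Ighv1-26 forms a band across C57BL/6 and Winnie, and single bright cells mark leaders of 1 library, such as Ighv14-3 in Winnie 1 (19.3%) and Ighv14-1 in C57BL/6 7 (16.7%).

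Diversity was highest on average in Winnie-Prolapse. The diversity measures were not brought to the same number of Ighv counts. A library had 619 to 3048 of these in C57BL/6, 2712 to 26278 in Winnie and 9989 to 40752 in Winnie-Prolapse. The part of this depth in the diversity was not tested. The effective number of segments is the number of equally used segments that would give the same Shannon entropy. It was 30.2 to 47.1 in C57BL/6 (median 35.9), 27.7 to 39.5 in Winnie (median 37.6) and 37.3 to 48.4 in Winnie-Prolapse (median 43.7). In Winnie-Prolapse 5 of 7 libraries lay above all Winnie libraries, and 2 of 7 above all C57BL/6 libraries, so the ranges overlapped. The means were 36.6 ± 5.69 (SD, n = 8), 35.2 ± 4.44 (SD, n = 7) and 43.1 ± 4.59 (SD, n = 7), with 42.2 ± 4.36 (SD, n = 6) in Winnie-Prolapse without replicate 6. The inverse Simpson index, which weighs the leading segments more, had means of 23.2 ± 6.6, 20.9 ± 4.89 and 29.1 ± 6.38 in the same order.

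The leading segment held 7.63 to 22.6% of a C57BL/6 library (median 11.5%), 8.36 to 21.4% of a Winnie library (median 11.8%) and 6.61 to 17.3% of a Winnie-Prolapse library (median 7.67%). The leading 5 segments together held means of 36 ± 4.94% (SD, n = 8), 39.4 ± 5.01% (SD, n = 7) and 31.6 ± 5.42% (SD, n = 7). All these ranges overlapped. Within sexes, the mean effective number was 36.6 in C57BL/6 males and 36.7 in females. In Winnie it was 37.4 in males and 33.5 in females, and in Winnie-Prolapse 41.2 in males and 45.6 in females. Diversity is a measure over all members and is given with no test.

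**Figure D3:**
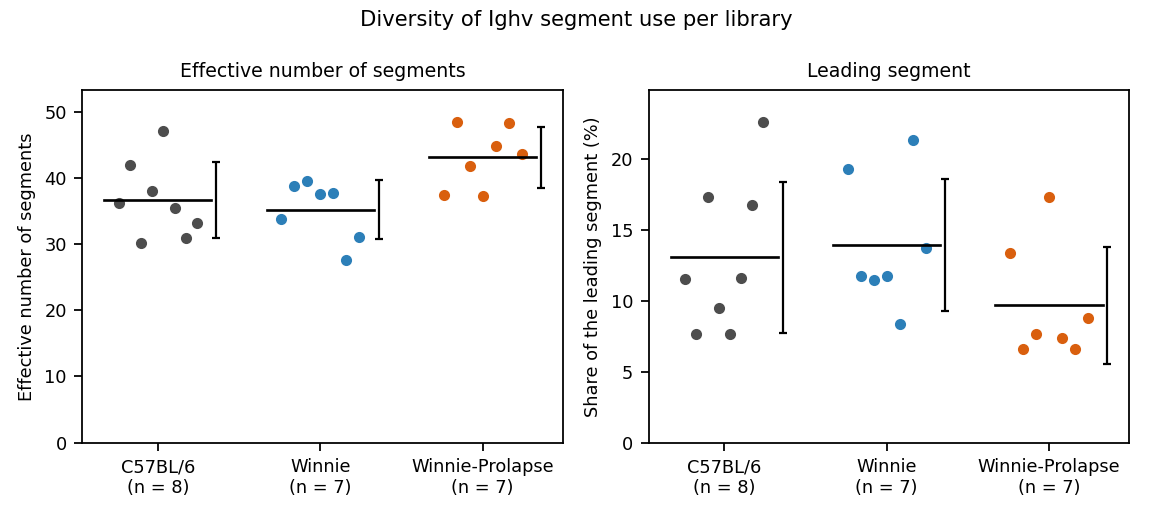
Points are libraries by group, the horizontal bar is the mean and the error bar beside it is the SD. The left axis is the effective number of segments (means 36.6, 35.2 and 43.1) and the right axis the share of the leading segment in percent (means 13.1, 14 and 9.69%).

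The use of segments in 2 libraries was compared by the overlap of their shares, the sum over members of the smaller of both shares. Over pairs within a group the median overlap was 57.1% in C57BL/6 (28 pairs), 54.9% in Winnie (21 pairs) and 63% in Winnie-Prolapse (21 pairs). Between groups it was 55.5% for C57BL/6 and Winnie (56 pairs), 55.5% for C57BL/6 and Winnie-Prolapse (56 pairs) and 57.6% for Winnie and Winnie-Prolapse (49 pairs). The ranges of overlap within and between groups covered each other. The lowest overlap of all was 40.8%, between C57BL/6 replicates 3 and 7, and the highest 72.1%, between Winnie-Prolapse replicates 2 and 6. The Morisita-Horn index, which weighs abundant segments more, had within-group medians of 0.673 in C57BL/6 mice, 0.54 in Winnie mice and 0.705 in Winnie-Prolapse. Pairs share libraries and are not independent. No member had shares that separated any of the 3 pairs of groups without overlap.

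No family had shares that separated a pair of groups without overlap. Family 1, with 53 members, held 40.6 to 67.3% of a C57BL/6 library, 47.7 to 65.8% of a Winnie library and 50 to 66.6% of a Winnie-Prolapse library. Family 5 (10 members) held means of 6.48 ± 1.55%, 6.43 ± 4.04% and 7.86 ± 2.55%. Family 7 (4 members) had 2.14 ± 1.57% in C57BL/6 mice, 3.78 ± 1.01% in Winnie mice and 6.67 ± 4.31% in Winnie-Prolapse. Its range in Winnie-Prolapse was 0.609 to 14.3% and covered both other groups. Family 2 (9 members) had 2.2 ± 1.06%, 2.91 ± 0.855% and 4.51 ± 2.14%. Family 14 (4 members) had 6.77 ± 5.21%, 6.06 ± 6.81% and 2.38 ± 0.849%, and its highest values, 17.6% and 19.9%, came from C57BL/6 replicate 7 and Winnie replicate 1, the libraries led by Ighv14-1 and Ighv14-3. The SD of each family is over n = 8, 7 and 7 libraries.

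By position, the 38 segments nearest to the D segments held means of 25 ± 6.84% (SD, n = 8) in C57BL/6 mice, 23.5 ± 7.52% (SD, n = 7) in Winnie mice and 26.9 ± 5.32% (SD, n = 7) in Winnie-Prolapse. The 37 in the middle of the locus held 38.7 ± 6.32%, 44.5 ± 5.76% and 37.5 ± 2.4%. The 38 farthest ones held 36.3 ± 5.64%, 32 ± 5.06% and 35.7 ± 5.36%. Each stretch of the locus overlapped between all groups.

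Single segments were then compared between groups with edgeR's quasi-likelihood test on all genes, the 2 comparisons with C57BL/6 sharing the same control libraries. A segment was called at a Benjamini-Hochberg adjusted p under 0.001 and a change of at least 1.5-fold, and calls at an adjusted p under 0.05 are given beside them. The test left out genes with too few counts, and a segment could pass this filter through the group where it was high. In Winnie against C57BL/6, 55 of 113 members were tested, of which 17 passed the filter in C57BL/6 alone and 38 only together with Winnie. Of the 55, 1 was called higher, against a background of 0.0868% of all 17289 genes tested. This count depended on the tool and on single libraries. It was 40 with DESeq2 (2.66% of all genes), 8 with all 3 groups in 1 fit (0.979% of all genes) and 0 with limma-voom. It was 13 without Winnie replicate 5 (2.5% of all genes) and 0 without C57BL/6 replicate 1, 2, 3, 4, 6 or 8 or Winnie replicate 1, 2 or 6. At an adjusted p under 0.05, 48 were higher, with a background of 7.42%. In 3 members (Ighv7-3, Ighv1-80 and Ighv1-63) every Winnie library lay above every C57BL/6 library, with a background of 0.463%. Of these 3, Ighv7-3 alone passed the filter in C57BL/6, so that it was the 1 of 17 such members with no overlap. Ighv1-80 and Ighv1-63 were tested only through their Winnie levels. None of the 55 was called lower. The log2 fold changes ran from -0.10 to 5.67 with a median of 2.87, while the median of all genes tested was -0.01. Among the 17 members that passed in C57BL/6 alone, 1 was called and 16 had an adjusted p under 0.05, with a median of 2.84.

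Ighv7-3 (ENSMUSG00000076652, chromosome 12, 114153180 to 114153644), a segment of the small family 7, was the one called in Winnie by edgeR. It had 0.274 to 1.85 CPM in C57BL/6 (median 0.641), 3.28 to 16.5 CPM in Winnie (median 7.77) and 3.9 to 87.2 CPM in Winnie-Prolapse (median 24.7). Every library of both colitic groups lay above every C57BL/6 library, the lowest being Winnie replicate 5 and Winnie-Prolapse replicate 4. In Winnie it rose by 3.61 ± 0.41 on the log2 scale (SE, edgeR, adjusted p = 0.000514). The call was lost in 9 of 15 fits that each left out 1 library, with the adjusted p at most 0.00263, without C57BL/6 replicate 6, and in limma-voom (adjusted p = 0.00105). In Winnie-Prolapse it rose by 5.60 ± 0.65 (SE, edgeR, adjusted p = 6.72e-06) and was called in all 15 such fits. Its share of Ighv counts per exonic base was 0.59 to 4.51% in C57BL/6 mice, 1.5 to 3.73% in Winnie mice and 0.29 to 13.4% in Winnie-Prolapse. The share was above all Winnie libraries in 5 of 7 Winnie-Prolapse libraries and below all of them in replicate 4. No 100-base stretch of Ighv7-3 was shared with another Ighv gene.

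**Figure D4:**
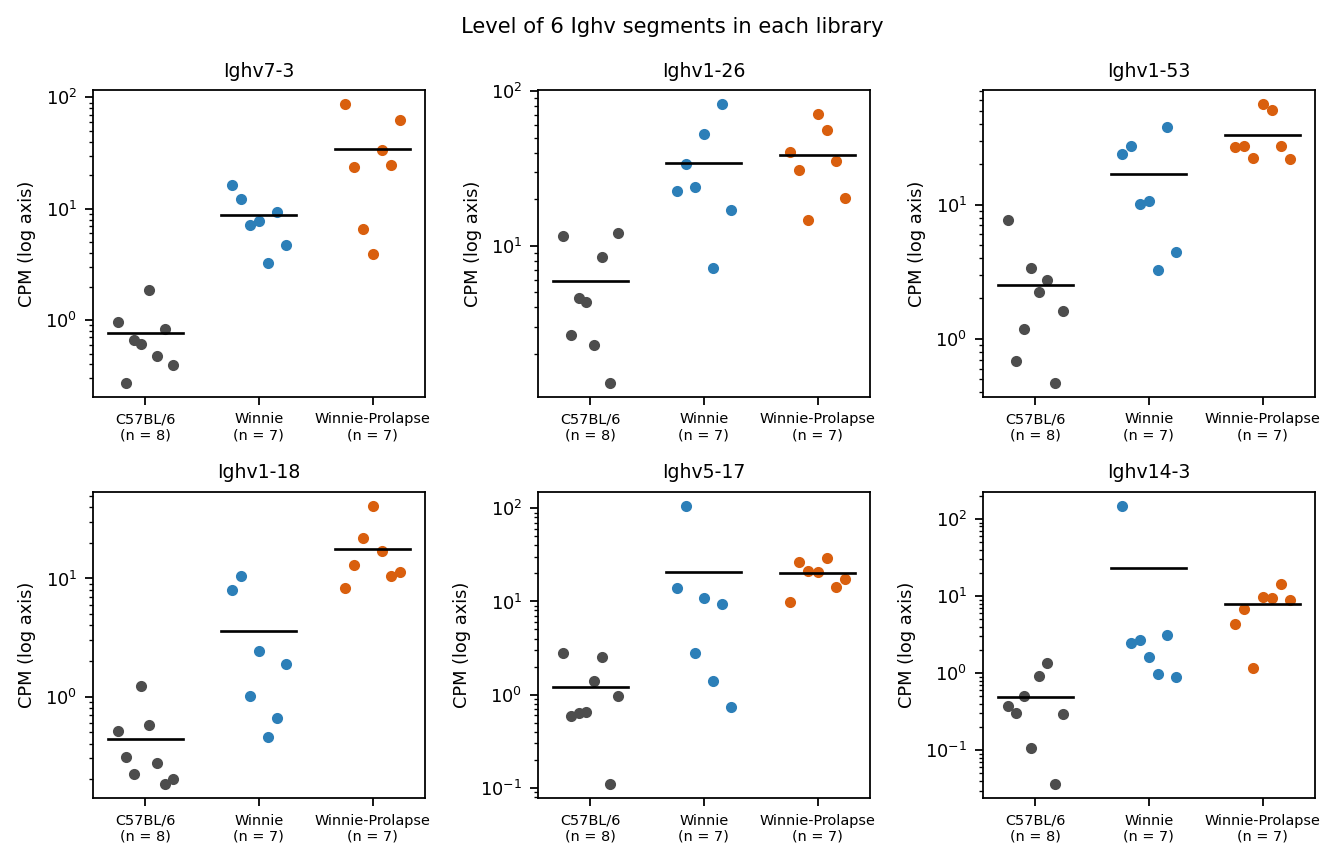
Each panel gives the level of 1 Ighv segment in CPM (log axis) in every library, by group, with the mean as a bar. Ighv7-3 has no overlap between C57BL/6 (0.274 to 1.85 CPM) and the colitic groups, while Ighv14-3 and Ighv5-17 each have a single Winnie library far above the rest, at 149 and 107 CPM.

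Other segments were higher in Winnie at an adjusted p under 0.05 without passing the stricter limit in the edgeR fit of the 2 groups. Ighv1-80 had 0.0725 to 0.551 CPM in C57BL/6 (median 0.227) and 1.25 to 12 CPM in Winnie (median 2.91), with no overlap, and a log2 difference of 4.09 ± 0.59 (SE, edgeR, adjusted p = 0.00124). Ighv8-8 had 0.0725 to 0.795 CPM (median 0.391) against 0.737 to 5.29 CPM (median 2.92), overlapping in 1 Winnie library (2.86 ± 0.45, edgeR, adjusted p = 0.00162). Ighv1-63 had 0 to 0.331 CPM against 0.368 to 2.66 CPM (4.03 ± 0.64, edgeR, adjusted p = 0.00176). No C57BL/6 library of Ighv1-63 reached the filter, which asks for 7 libraries, so its lack of overlap was fixed by the filter and is no result. Ighv2-2, 1 of the segments nearest to D, had 0.0684 to 0.923 CPM (median 0.408) against 0.656 to 8.2 CPM (median 3.38), with 6 of 7 Winnie libraries above all controls (3.13 ± 0.54, edgeR, adjusted p = 0.00236). With all 3 groups in 1 edgeR fit, Ighv1-80 (adjusted p = 0.000343) and Ighv2-2 (adjusted p = 0.000583) passed the stricter limit. Ighv8-8 (adjusted p = 0.00599) and Ighv1-63 (adjusted p = 0.00181) did not pass it in that edgeR fit. In DESeq2 all 4 had an adjusted p of 1.69e-07 or below. All 4 of these segments passed the filter only together with Winnie, so their tests are no support for a difference. Shared 100-base stretches made up 24.1% of Ighv2-2 and 9.27% of Ighv8-8.

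The abundant Ighv1-26 had 1.3 to 12 CPM in C57BL/6 (median 4.45), 7.22 to 82.3 CPM in Winnie (median 23.8) and 14.6 to 71.2 CPM in Winnie-Prolapse (median 35.5). In Winnie 6 of 7 libraries, and in Winnie-Prolapse all 7, lay above every C57BL/6 library. The log2 difference was 2.64 ± 0.54 in Winnie (SE, edgeR, adjusted p = 0.00521, not called) and 2.75 ± 0.46 in Winnie-Prolapse (SE, edgeR, adjusted p = 0.000164, called). Between the colitic groups it was 0.10 ± 0.46 (SE, edgeR, adjusted p = 0.912).

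In several segments 1 Winnie library set the group mean. Ighv14-3 had 0.904 to 149 CPM in Winnie with a median of 2.44, and its mean of 23 CPM was 1.95 ± 0.918 CPM (SD, n = 6) without replicate 1. Ighv5-17 had 0.737 to 107 CPM with a median of 9.32, and its mean of 20.8 CPM was 6.51 ± 5.58 CPM (SD, n = 6) without replicate 2. Ighv1-7 had 0.67 to 46.8 CPM with a median of 2.99, and a mean of 9.76 CPM, or 3.59 ± 3.18 (SD, n = 6) without replicate 2. None of these 3 was called in Winnie by edgeR. DESeq2 called Ighv5-17 (adjusted p = 8.45e-05) and Ighv1-7 (adjusted p = 5.86e-07), and with all 3 groups in 1 edgeR fit Ighv1-7 was called (adjusted p = 0.000545). Their edgeR log2 differences from C57BL/6 of 5.67, 4.14 and 5.00 rest in part on these libraries.

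More segments were called by edgeR in Winnie-Prolapse, where the background was higher too. Of 66 members tested against C57BL/6 (17 passing in C57BL/6 alone and 49 only with Winnie-Prolapse), 48 were called higher, with a background of 9.84% of 17397 genes. At an adjusted p under 0.05, 64 were higher, with a background of 16.7%. In 37 members every Winnie-Prolapse library lay above every C57BL/6 library, with a background of 6.5%. The 49 members tested only with Winnie-Prolapse entered through high levels there, so the counts over all 66 are a description. In some, such as Ighv2-9 and Ighv2-3, no C57BL/6 library reached the filter. Their lack of overlap was fixed by it and is no result. None of the 66 was called lower. The log2 fold changes were between 1.86 and 6.52, all above 0, with a median of 3.77 beside -0.01 for all genes. Among the 17 members that passed in C57BL/6 alone, 16 were called and 12 did not overlap, with log2 fold changes of 2.75 to 5.60. Without Winnie-Prolapse replicate 6, 46 members were called.

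The smallest p was that of Ighv1-18. This segment had 0.181 to 1.23 CPM in C57BL/6 (median 0.291), 0.459 to 10.6 CPM in Winnie (median 1.88) and 8.23 to 41.3 CPM in Winnie-Prolapse (median 13). Winnie-Prolapse did not overlap with C57BL/6, and 5 of its 7 libraries lay above all Winnie libraries. It differed by 5.39 ± 0.45 from C57BL/6 (SE, edgeR, adjusted p = 4.01e-07). Ighv1-7 had 0.0362 to 1.04 CPM in C57BL/6 and 4.6 to 14.2 CPM in Winnie-Prolapse (4.92 ± 0.51, edgeR, adjusted p = 2.87e-06). Ighv1-4 had 0.0393 to 0.649 CPM against 1.57 to 22.9 CPM (5.75 ± 0.60, edgeR, adjusted p = 3.10e-06). The nearest relative of Ighv1-7 was Ighv1-4, at 96.9% identity, and shared stretches made up 16.6% and 19.1% of them. Ighv2-2 had 4.3 to 13.1 CPM in Winnie-Prolapse (4.64 ± 0.49, edgeR, adjusted p = 3.28e-06), and Ighv5-17 had 9.85 to 29.6 CPM (4.11 ± 0.47, edgeR, adjusted p = 6.35e-06). All 5 were called in each of 15 fits that left out 1 library. Of the 5, Ighv5-17 alone passed the filter in C57BL/6. The others were tested through their Winnie-Prolapse levels, so their tests are no support for a difference.

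Among the abundant segments, Ighv1-53 had 0.471 to 7.69 CPM in C57BL/6 (median 1.93) and 22 to 56.3 CPM in Winnie-Prolapse (median 27.3), with no overlap, and rose by 3.79 ± 0.49 (SE, edgeR, adjusted p = 1.80e-05). Ighv3-6 had 0.603 to 4.89 CPM against 7.72 to 103 CPM (4.17 ± 0.59, edgeR, adjusted p = 3.87e-05). Ighv1-9, Ighv6-3, Ighv9-3 and Ighv1-72 were also called, with log2 fold changes of 4.17, 4.06, 2.76 and 3.31 and no overlap. Ighv6-3 passed the filter only with Winnie-Prolapse, so its test is no support for a difference. Ighv1-9 had 0.127 to 3.42 CPM in C57BL/6 and 4.84 to 36.7 CPM in Winnie-Prolapse. The groups of Ighv1-81 overlapped, with 0.0952 to 4.3 CPM in C57BL/6 (median 1.14) and 2.66 to 227 CPM in Winnie-Prolapse (median 19.6). Its mean of 46.4 CPM was 16.4 ± 12.1 CPM (SD, n = 6) without replicate 4, which it led. It was called (4.70 ± 0.90, edgeR, adjusted p = 0.000508) in 11 of 15 fits that left out 1 library, and the call was lost without C57BL/6 replicate 2, 5, 6 or 8 and in limma-voom (adjusted p = 0.00721). Ighv9-3 was called in 9 of 15, and was lost without C57BL/6 replicate 2, 3, 4 or 5 or Winnie-Prolapse replicate 5 or 7. In Ighv8-8 the Winnie-Prolapse mean of 7.01 CPM was 3.45 ± 3.78 CPM (SD, n = 6) without replicate 4.

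Of the segments that led a single library, Ighv14-3, which passed the filter only with Winnie-Prolapse, was called in Winnie-Prolapse (4.10 ± 0.59, edgeR, adjusted p = 4.70e-05), with 1.18 to 14.2 CPM against 0.0362 to 1.34 CPM in C57BL/6. Its test is therefore no support for a difference, and the call was lost with all 3 groups in 1 fit (edgeR, adjusted p = 0.0034). Ighv14-2 and Ighv14-1 were not called. Ighv14-2 had 0.145 to 5.68 CPM in C57BL/6 and 0.711 to 22.5 CPM in Winnie-Prolapse (1.86 ± 0.77, edgeR, adjusted p = 0.0535). Ighv14-1 had 0 to 3.62 CPM against 0.259 to 7.67 CPM (2.37 ± 1.06, edgeR, adjusted p = 0.0719).

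The calls were spread over the families. In Winnie-Prolapse against C57BL/6, 28 of 36 tested members of family 1 were called, beside 9.84% of all genes. Most tested members, 49 of 66, had passed the filter only with Winnie-Prolapse, so these counts are a description. For family 2 the count was 4 of 5, for family 3 it was 2 of 3, for family 5 it was 4 of 7, and for family 14 it was 1 of 4. Both tested members were called in families 6, 7 and 10. The highest family median of the log2 fold change, 5.45, was that of family 7, and the lowest, 2.59, that of family 9, each over 2 members.

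**Figure D5:**
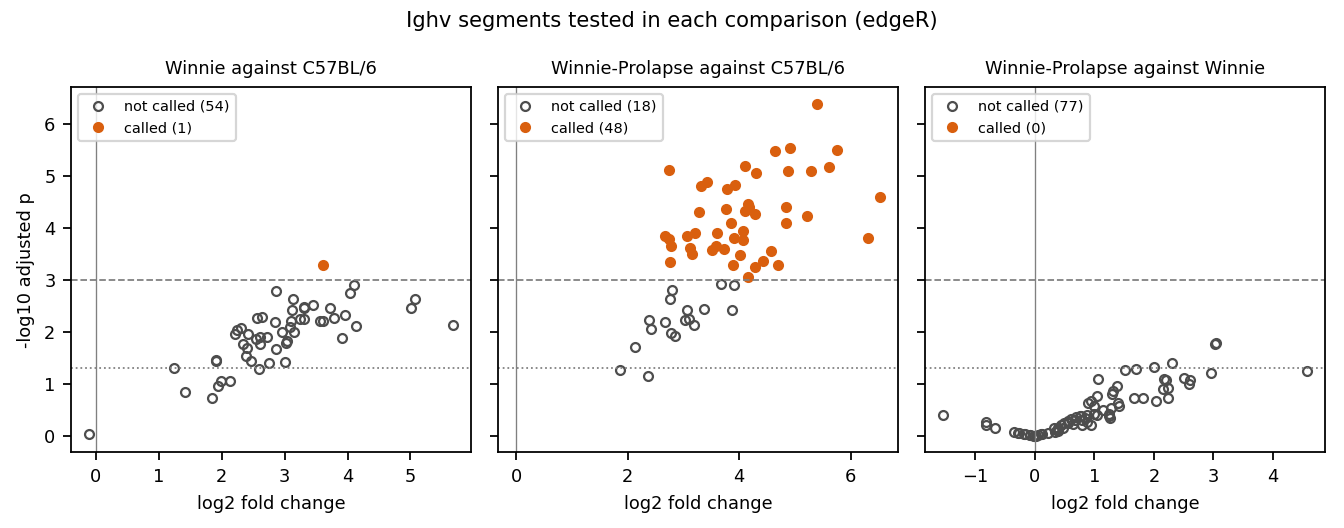
Each point is an Ighv segment tested by edgeR, with its log2 fold change on the x axis and -log10 of its adjusted p on the y axis. Dashed and dotted lines mark adjusted p of 0.001 and 0.05. Filled points are called, 1 of 55 in the left panel, 48 of 66 in the middle one and 0 of 77 in the right one.

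Between the colitic groups the share of segments called was close to that of all genes. Of 77 members tested in Winnie-Prolapse against Winnie (39 passing in Winnie alone and 38 only with Winnie-Prolapse), edgeR called 0, with a background of 0.0% of 17041 genes, and 20 members (26%) had an unadjusted p under 0.05, as did 27.8% of all genes. DESeq2 called 2 of 105 members higher (1.9%), beside 1.71% of all genes. At an adjusted p under 0.05, 4 were higher (5.19%), with a background of 4.27%, and none was lower. These shares are near the background and are not a result about the segments. In 0 members did the groups not overlap, with a background of 0.411%. The median log2 fold change was 0.87 beside 0.01 for all genes, with a range of -1.54 to 4.56. Among the 39 members that passed in Winnie alone, it was 0.69.

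The 4 were Ighv1-75, Ighv7-4, Ighv1-18 and Ighv7-3. Ighv1-75 had 0.137 to 1.21 CPM in C57BL/6 (median 0.568), 0.492 to 2.55 CPM in Winnie (median 1.61) and 2.27 to 41.6 CPM in Winnie-Prolapse (median 9.8), with 6 of 7 libraries above all Winnie libraries (3.04 ± 0.60 on the log2 scale, edgeR, adjusted p = 0.016). Its Winnie-Prolapse mean of 12.5 CPM was 7.63 ± 4.36 CPM (SD, n = 6) without replicate 7. Ighv7-4, the nearest relative of Ighv7-3 at 93.9% identity, had 0.032 to 0.405 CPM in Winnie mice and 0.212 to 3.72 CPM in Winnie-Prolapse (3.03 ± 0.62, edgeR, adjusted p = 0.017). It passed the filter only with Winnie-Prolapse, as 2 of 7 Winnie libraries reached it, so its test is no support for a difference. Ighv1-18 differed by 2.30 ± 0.64 (edgeR, adjusted p = 0.0395) and Ighv7-3 by 2.0 ± 0.59 (edgeR, adjusted p = 0.0478). Ighv7-3 did not pass in limma-voom (adjusted p = 0.195) or with sex as a covariate (edgeR, adjusted p = 0.0646). Ighv2-9 had 0.0984 to 1 CPM in Winnie mice and 0.562 to 2.58 CPM in Winnie-Prolapse, and did not pass in edgeR (1.70 ± 0.51, adjusted p = 0.0506). It had an adjusted p of 0.00924 in DESeq2, 0.0482 in limma-voom and 0.0266 with all 3 groups in 1 fit, and it passed the filter only with Winnie-Prolapse. When single libraries were left out, the edgeR adjusted p of Ighv7-3 reached 0.0941 (without Winnie replicate 5) and that of Ighv1-18 reached 0.0837 (without Winnie-Prolapse replicate 4), while that of Ighv1-75 stayed at 0.0392 or below. The 2 segments called by DESeq2 at the stricter limit were Ighv1-75 and Ighv7-4, the latter with the limit of the filter given above. The lowest value, -1.54 ± 1.12 for Ighv14-3, had an adjusted p of 0.392 in edgeR and rests on Winnie replicate 1. Without that library it was 2.02, and in DESeq2 it was 1.75 with an adjusted p of 0.00277 and in limma-voom 0.82 with an adjusted p of 0.604.

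Among the genes that work with the V segments, the recombination machinery of developing B cells was near 0 or not called. Rag1 and Rag2 form the nuclease that cuts the DNA so that V can be joined to D and J. Rag2 had 0 counts in all 22 libraries and Rag1 in 21 of 22, with 0.0323 CPM in the other. Dntt, the polymerase that adds bases at the joins, stood at 0.0386 CPM at most in C57BL/6 mice, 0 to 0.256 CPM in Winnie mice and 0.0654 to 0.331 CPM in Winnie-Prolapse, and was too low for the test. Of 10 recombination genes, 7 were tested and 0 were called in any comparison by edgeR, also at an adjusted p under 0.05. Their joining factors, such as Prkdc, Xrcc4 and Lig4, act in DNA repair in all cells.

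The markers of B cells (Ms4a1, Cd79a, Cd79b, Pax5, Cd22, Fcer2a, Cr2 and Blk) gave 0 calls of 8 in every comparison by edgeR, and 0 at an adjusted p under 0.05. Their sums were 3.55 to 284 CPM in C57BL/6 mice, 16.3 to 106 in Winnie mice and 28.8 to 175 in Winnie-Prolapse. None of the 8 was at 0 in any library. Of 9 plasma cell genes, 1 was called in Winnie mice and 7 in Winnie-Prolapse against C57BL/6, with median log2 fold changes of 1.57 and 1.88. At an adjusted p under 0.05 the counts were 6 and 8. Of all genes tested, 0.0868% and 9.84% were called higher, and 7.42% and 16.7% at an adjusted p under 0.05. Prdm1, the factor that drives plasma cell formation, had 2.83 to 9.68 CPM in C57BL/6 mice, 8.83 to 30 in Winnie mice and 22.8 to 54.6 in Winnie-Prolapse. It rose by 2.04 ± 0.26 in Winnie (edgeR, adjusted p = 0.000937) and by 2.80 ± 0.24 in Winnie-Prolapse (edgeR, adjusted p = 4.83e-07). Jchain, which links IgA and IgM into polymers, rose by 2.82 ± 0.33 in Winnie-Prolapse (edgeR, adjusted p = 7.48e-06) and differed by 2.09 ± 0.39 in Winnie (edgeR, adjusted p = 0.0035, not called). Sdc1, also an epithelial gene, had 162 to 249 CPM, 132 to 272 CPM and 181 to 362 CPM in the 3 groups and was not called. The plasma cell sums were 457 to 814, 716 to 1865 and 1467 to 2201 CPM.

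Of 13 genes of immunoglobulin transcription and secretion, 1 was called in Winnie mice and 8 in Winnie-Prolapse, beside 0.0868% and 9.84% of all genes. The list shares 6 genes with the plasma cell list. Hspa5, an endoplasmic reticulum chaperone that binds free heavy chains and other proteins, rose by 1.40 ± 0.17 in Winnie-Prolapse (edgeR, adjusted p = 9.17e-06). It is not particular to plasma cells, and the cells behind its rise were not tested. Pigr, the epithelial receptor that carries IgA into the lumen, had means of 4659 ± 697 CPM (SD, n = 8), 5142 ± 448 (SD, n = 7) and 4035 ± 1620 (SD, n = 7) and was not called. Of 11 genes of hypermutation and class switching, 9 were tested in Winnie with 0 called by edgeR. At an adjusted p under 0.05 it was 4, beside 7.42% of all genes. In Winnie-Prolapse 10 were tested with 4 called, beside 9.84% of all genes. These 4 were Apobec3, Tgfb1, Il10 and Tnfsf13b, the last encoding BAFF, a survival factor of B cells. Their calls are no measure of hypermutation or class switching, which were not tested. Tnfsf13b rose by 1.33 ± 0.22 (edgeR, adjusted p = 0.000137). Of 3 germinal centre and follicle genes found, 0 were called by edgeR in any comparison. At an adjusted p under 0.05, 1 was higher in Winnie-Prolapse, Bcl6, a factor of germinal centre B cells, against C57BL/6 (0.84 ± 0.19, edgeR, adjusted p = 0.00143) and against Winnie (0.82 ± 0.17, edgeR, adjusted p = 0.018). The backgrounds at this limit were 16.7% and 4.27% of all genes.

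Markers of T cells moved with the groups as well. Cd3e, Cd4, Cd8a and Trac summed to 2.97 to 14.9 CPM in C57BL/6 (median 5.74), 10.1 to 29.1 CPM in Winnie (median 13.5) and 12.5 to 33.7 CPM in Winnie-Prolapse (median 21.6). By edgeR 0 of 4 were called in Winnie and 3 of 4 in Winnie-Prolapse against C57BL/6, beside 0.0868% and 9.84% of all genes. All 4 were higher at an adjusted p under 0.05 in both comparisons, beside 7.42% and 16.7% of all genes. Between the colitic groups 0 of 4 were called, also at that limit. The part of T cells and other infiltrating cells in the values of the V segments was not tested.

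The constant genes that the V segments are joined to differed by class. Of 7 tested, 0 were called in Winnie by edgeR (5 at an adjusted p under 0.05) and 5 in Winnie-Prolapse. Of all genes, 0.0868% were called higher in Winnie (7.42% at an adjusted p under 0.05) and 9.84% in Winnie-Prolapse. Igha had 248.5 to 1185 CPM in C57BL/6 (median 538), 1349 to 5476 in Winnie (median 3398) and 2918 to 6943 in Winnie-Prolapse (median 5721). Both colitic groups lay above all C57BL/6 libraries. Igha rose by 3.15 ± 0.34 in Winnie-Prolapse (edgeR, adjusted p = 4.27e-06) and differed by 2.48 ± 0.40 in Winnie (edgeR, adjusted p = 0.00186, not called). The IgG gene Ighg2c had 0.0952 to 0.596 CPM in C57BL/6 mice, 0.0771 to 34.4 in Winnie mice and 11.2 to 104 in Winnie-Prolapse. It differed by 7.72 ± 0.55 between Winnie-Prolapse and C57BL/6 (edgeR, adjusted p = 6.27e-08). It passed the filter only with Winnie-Prolapse, so its test is no support for a difference. Ighg2b rose in Winnie-Prolapse by 5.15 ± 0.46 and Ighg1 by 4.82 ± 0.90. Ighg3 differed by 4.29 ± 0.37 and, like Ighg2c, passed the filter only with Winnie-Prolapse. The genes of the unswitched classes were not called, with Ighm at 8.55 to 106.5, 13.6 to 80.5 and 27.4 to 90.8 CPM and Ighd at 0.362 to 82.4, 3.16 to 30.2 and 5.08 to 39.3 CPM in the 3 groups. Ighe was at 0 in 6 of 8 C57BL/6 libraries and at most 1.47 CPM elsewhere, and was not tested.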

How the data were processed

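RNA of distal colon from 22 mice was measured, 1 library per mouse. Per the study's methods and the submitters' processing notes, poly(A) RNA was prepared with a stranded MGIEasy kit, and the authors aligned reads to GRCm38 with STAR and counted them per gene with featureCounts within RNAsik 1.5.4. The deposited values are raw counts. The annotation release and the treatment of multi-mapping reads are not given in the sources used here. Groups, sex and age came from the labels.

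Members and gene lists were chosen with earlier results of these data known. CPM used the library total (24817527 to 36344372 counts). Tests used edgeR 4.0.16 in R 4.3.3 (filterByExpr, TMM factors, quasi-likelihood test, Benjamini-Hochberg adjustment over all genes tested), fitted to the 2 groups compared and tested on simulated data. limma 3.58.1 (voom) and DESeq2 1.42.0 were alternatives, beside other filters, sex as a covariate, all 3 groups in 1 fit and leaving out each library. Shares, families and diversity were computed in Python 3.11.15 (pandas 2.3.3, numpy 2.4.6), with exonic lengths from GENCODE M21. Named members were the 10 with the highest level per exonic base, 5 per comparison with the smallest p, and the leading member of each library. Within groups, counts of library pairs differed by a chi-square of at least 28.8 per degree of freedom, and all 22 were kept as separate samples. Each p-value sets a difference between groups against the spread between mice. Some genes of the lists are not reported here.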

Additional observations from a re-analysis of the deposited data

Results flagged for a closer look

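In 54 sets of values, each 1 library measure or the share of 1 segment in 1 group, the highest or lowest library was compared with the rest by the ratio of its gap to the whole range (Dixon's 95% limit). In 9 of them a library stood apart. Chance gives about 1 in 20 only where values are not chosen for a high library, and these segments included the leading one of each library, so no chance share applies to the 9. All 9 were a high share of a single segment in the Ighv counts per exonic base of 1 mouse. In C57BL/6, Ighv14-1 had 16.7% in replicate 7 (others 0 to 0.606%) and Ighv9-3 had 11.6% in replicate 6 (others 1.43 to 6.09%). In Winnie, Ighv14-3 had 19.3% in replicate 1 (others 0.272 to 1.13%), Ighv5-17 had 11.8% in replicate 2 (others 0.519 to 2.1%), Ighv1-53 had 9.92% in replicate 6 (others 2.37 to 4.85%) and Ighv14-2 had 6.57% in replicate 4 (others 0.247 to 1.34%). In Winnie-Prolapse, Ighv1-81 had 17.3% in replicate 4 (others 0.921 to 4.69%), Ighv1-72 had 3.99% in replicate 2 (others 1.59 to 2.5%) and Ighv14-2 had 1.73% in replicate 4 (others 0.153 to 0.758%).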

How the results depend on the processing

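The count of segments called in Winnie against C57BL/6 depended on the processing. It was 1 in edgeR, 40 with DESeq2, 0 with limma-voom, 2 with no filter on low counts, 0 of 5 tested with at least 10 counts in every library, 8 with all 3 groups in 1 fit and 48 at an adjusted p under 0.05. The share of all genes called higher moved as well, from 0.0868% to 2.66% with DESeq2 (38.5% of members), 0.0% with limma-voom and with at least 10 counts in every library, 0.218% with no filter and 0.979% with all 3 groups (10.3% of members). Leaving out single libraries gave 0 to 13, with 0 without C57BL/6 replicate 1, 2, 3, 4, 6 or 8 or Winnie replicate 1, 2 or 6, and 13 (21.3% of members, 2.5% of all genes) without Winnie replicate 5. In Winnie-Prolapse against C57BL/6 48 of 66 members were called (72.7%, and 9.84% of all genes). With at least 10 counts in every library 5 members were tested and all 5 were called (9.44% of all genes). The count was 41 to 50 when single libraries were left out. In Winnie-Prolapse against Winnie the count of 0 was 2 with DESeq2, 4 at an adjusted p under 0.05 and 0 in every fit without 1 library. With at least 10 counts to be detected, the mean number of detected members was 34.5 in C57BL/6 mice, 66.1 in Winnie mice and 77.9 in Winnie-Prolapse. With Ighv pseudogenes added it was 94.6 in Winnie mice and 101 in Winnie-Prolapse. Directions turned in Winnie-Prolapse against Winnie alone, in 9 of 23 named segments, none of them past either limit in edgeR. As log2 differences, DESeq2 gave 1.75 for Ighv14-3 (-1.54 in edgeR) and 1.33 for Ighv5-17 (-0.02). limma-voom gave 0.82 for Ighv14-3, 1.51 for Ighv5-17, 1.02 for Ighv1-7, 0.34 for Ighv14-2 (-0.28), 1.25 for Ighv14-1 and -0.10 for Ighv1-63. With sex as a covariate Ighv5-17 had 0.38, Ighv1-63 -0.25 (0.38), Ighv1-7 0.19 (-0.08) and Ighv14-1 0.17 (-0.09). Leaving out single libraries gave -1.84 to 2.02 for Ighv14-3, -0.23 to 1.56 for Ighv5-17, -0.31 to 1.27 for Ighv1-7, -1.16 to 1.06 for Ighv14-2, -0.54 to 1.39 for Ighv14-1, -0.28 to 0.63 for Ighv1-63, -0.19 to 0.54 for Ighv1-72, -0.12 to 0.88 for Ighv6-3 and -0.081 to 0.53 for Ighv1-26. Beyond single libraries left out, named segments lost a call at the stricter limit in limma-voom (Ighv7-3 in Winnie, Ighv1-81 and Ighv8-8 in Winnie-Prolapse against C57BL/6) and with all 3 groups in 1 fit (Ighv14-3 in Winnie-Prolapse against C57BL/6). At an adjusted p under 0.05, Ighv7-3 in Winnie-Prolapse against Winnie was lost in limma-voom and with sex as a covariate, Ighv5-17 in Winnie against C57BL/6 in limma-voom, and Ighv1-75 there with library size only and with all 3 groups in 1 fit. Levels without the highest library were added after seeing the data. The cause of these differences was not tested. Few Ighv counts in C57BL/6 limit the precision of its shares. No paired analysis was possible because the replicate numbers follow accession order and pair no mice.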
